A study of Mus musculus with 6 samples.

Results

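The genes described here are Cxcl14, Timp1, Frem1, Gpr153, Cck, Colec12, Nkd2, Fbn2 and Cdh11, 9 of the 33696 genes counted in mouse kidney single-cell libraries. They were chosen by their strong rises in DOCA-salt kidneys when the unique molecular identifiers (UMIs, 1 per captured RNA molecule) of all cells of a mouse were summed. Levels are given as CPM, the UMIs of a gene scaled by the total UMIs of the same cells. The difference between sham and DOCA-salt mice in these 9 genes is therefore given as a description, with no p-value. The same holds for their levels by cell class, which were used to place them in the stroma. Tests were kept for companion genes outside the 9. All 9 symbols were found, each on 1 row of the gene list.

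Droplet single-cell RNA sequencing of whole kidney suspensions was compared between 3 sham mice and 3 DOCA-salt mice, all male C57BL/6 mice aged 8 to 10 weeks at the start. DOCA-salt mice lost the left kidney, received a 50 mg pellet of deoxycorticosterone acetate, a mineralocorticoid, 1 week later, and drank 1% NaCl for 21 days. Sham mice had sham surgery, no pellet and plain water. The loss of a kidney, the steroid and the salt came together, so their effects cannot be told apart. After filtering and removal of likely doublets, 55630 cells remained, 7701 to 9933 per mouse with a median of 4787 to 9148 UMIs, and 18 to 41 cell barcodes were shared between any pair of libraries. The cells formed 69 clusters. Of these, 7 with 1806 cells, 1599 of them from DOCA-salt mice, stayed unnamed, and the others were assigned to 20 classes from marker genes. All class names below mean cells like that type by these markers.

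Stromal fibroblasts lie between the tubules and around the vessels of the kidney, and make and anchor the collagen matrix. In injured kidneys they divide, take on contractile features and secrete matrix, protease inhibitors and signalling proteins. The 9 genes cover several of these jobs. Cxcl14 encodes a secreted chemokine and Cck the precursor of the peptide hormone cholecystokinin. Timp1 encodes a secreted inhibitor of matrix metalloproteinases. Fbn2 encodes the microfibril protein fibrillin-2 and Frem1 an extracellular matrix protein of the Fraser complex. Cdh11 encodes a mesenchymal cadherin, Colec12 a membrane scavenger receptor with a collagen-like stem, and Gpr153 an orphan G protein-coupled receptor. Nkd2 encodes a cytoplasmic protein that binds Dishevelled and dampens Wnt signalling.

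On the GRCm39 assembly with GENCODE gene models the 9 genes lie on 6 chromosomes. Cxcl14 (chr13:56436352-56444603, minus strand) and Nkd2 (chr13:73966653-73995761, minus strand) share chromosome 13, as Frem1 (chr4:82816164-82970576, minus strand) and Gpr153 (chr4:152358404-152369801, plus strand) share chromosome 4. Cck is at chr9:121315695-121324863 on the minus strand, Cdh11 at chr8:103358726-103512687 on the minus strand, and Timp1 at chrX:20736316-20740976 on the plus strand. Timp1 lies within Syn1, a counted gene on the opposite strand. No other member overlapped a gene in the count table.

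RefSeq promoter sequence was at hand for 6 of the 9 genes (GRCm38.p6). The 250 bases before the listed start are shown for Cck, which had no UMI in sham fibroblasts, and for Timp1, which was already present in them. Capitals mark matches, on either strand, to the searched motifs TGANTCA, a form of the site of the AP-1 factors, CTTTGA, that of the TCF and LEF factors, CATTCC, that of the TEAD factors, TATAAA, the core of the TATA box, and GGGCGG, the GC box. Cck is read from chr9:121495695-121495944, minus strand, and Timp1 from chrX:20869916-20870165, plus strand, each 5′ to 3′.
Cck: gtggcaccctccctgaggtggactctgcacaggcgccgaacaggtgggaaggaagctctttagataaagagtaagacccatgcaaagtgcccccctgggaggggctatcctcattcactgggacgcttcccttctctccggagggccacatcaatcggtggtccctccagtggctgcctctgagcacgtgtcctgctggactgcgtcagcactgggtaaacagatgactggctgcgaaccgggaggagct
Timp1: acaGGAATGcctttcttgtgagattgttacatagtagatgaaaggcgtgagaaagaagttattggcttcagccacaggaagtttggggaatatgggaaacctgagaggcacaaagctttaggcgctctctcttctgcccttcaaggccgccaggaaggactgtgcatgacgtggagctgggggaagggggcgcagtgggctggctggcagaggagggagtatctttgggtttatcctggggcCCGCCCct
Among the 8 promoters listed for these 6 genes, none held the AP-1, TCF/LEF or TATA motif, which were in 6.75%, 13.8% and 12.4% of all 32851 listed promoters. The TEAD motif was in 1, that of Timp1, against 12.6% of all. The GC box was in 3, those of Timp1 and both listed for Gpr153, against 32.7% of all. A match or its absence describes these letters alone.

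All 9 genes were higher in each DOCA-salt mouse than in any sham mouse when all cells were summed, which was the basis of their choice. The same complete separation, in the same direction, held for 26.6% of the 19658 genes tested, so it is not particular to these 9. Their edgeR log2 changes, between 4.01 and 7.16, ranked between 4 and 61 among the rises of all genes tested. A sum over a kidney cannot separate more cells of a type from more RNA in each cell. Fibroblasts made up 0.134% ± 0.0860 (SD, n = 3) of sham cells and 2.91% ± 0.400 (n = 3) of DOCA-salt cells, 38 cells against 822.

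**Figure D1:**
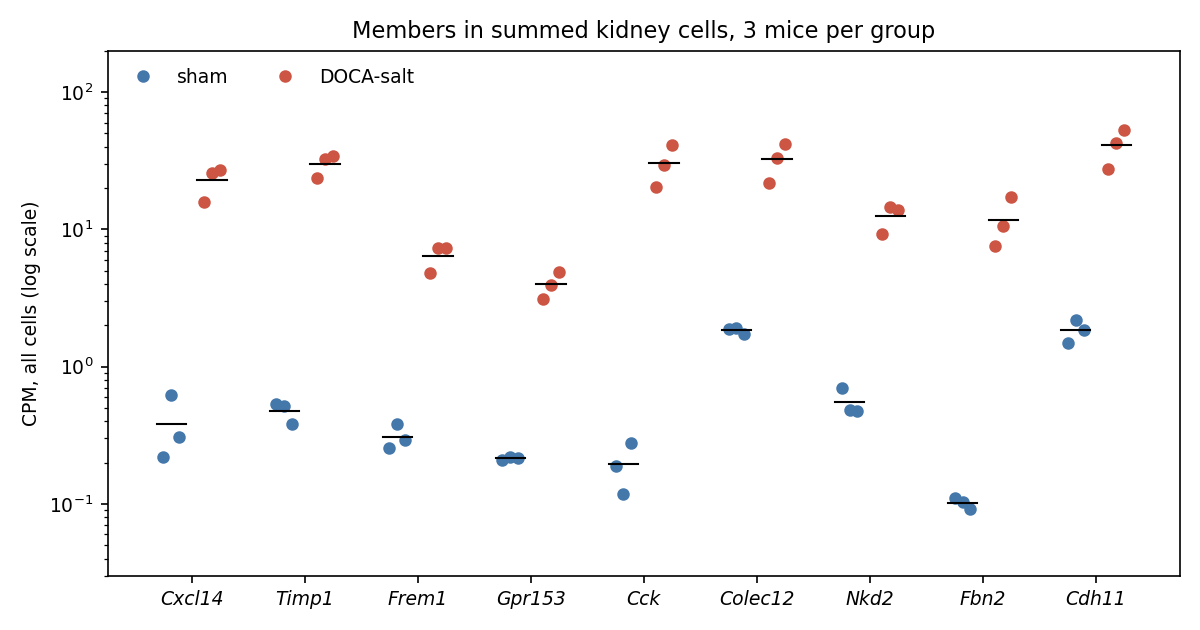
CPM over all cells of a mouse (log axis) for the 9 genes, 3 sham mice in blue and 3 DOCA-salt mice in red, with the group mean as a black bar. In every gene the 3 DOCA-salt mice sit above the 3 sham mice, from a mean of 0.102 to 11.7 for Fbn2 and of 1.84 to 40.9 for Cdh11.

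Cck, the peptide hormone gene, had 0.188, 0.118 and 0.276 CPM in the whole kidneys of sham mice 1, 2 and 3. In DOCA-salt mice 1, 2 and 3 it had 20.3, 29.3 and 41.2. The log2 change was 7.16 (SE 0.36), the highest of the 9. The chemokine gene Cxcl14 had 0.221, 0.618 and 0.307 CPM in sham mice and 15.7, 25.9 and 27.1 in DOCA-salt mice, a log2 change of 5.81 (SE 0.36). For both genes every DOCA-salt mouse was far above every sham mouse.

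Timp1, the metalloproteinase inhibitor, had 0.531, 0.515 and 0.384 CPM in sham kidneys. In DOCA-salt kidneys it had 23.5, 32.8 and 34.2, a log2 change of 5.85 (SE 0.20). The lowest DOCA-salt mouse was far above the highest sham mouse.

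Of the matrix genes, Fbn2 had 0.111, 0.103 and 0.0922 CPM in sham kidneys, from 23 UMIs in all. It lies at chr18:58141695-58343645 on the minus strand. It had 7.56, 10.6 and 17.1 in DOCA-salt kidneys, a log2 change of 6.69 (SE 0.38). Frem1 had 0.254, 0.383 and 0.292 in sham kidneys and 4.77, 7.28 and 7.28 in DOCA-salt kidneys, a log2 change of 4.26 (SE 0.25). Neither gene had a sham mouse near a DOCA-salt mouse.

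Of the surface proteins, Cdh11, the cadherin, had 1.49, 2.18 and 1.86 CPM in sham kidneys and 27.4, 42.3 and 53.2 in DOCA-salt kidneys, a log2 change of 4.35 (SE 0.26). Colec12, the scavenger receptor (chr18:9707593-9882644, plus strand), had 1.88, 1.90 and 1.74 against 21.7, 33.3 and 42.0, a log2 change of 4.01 (SE 0.23), the smallest of the 9. Gpr153, the orphan receptor, had 0.210, 0.221 and 0.215 against 3.13, 3.93 and 4.88, a log2 change of 4.08 (SE 0.23). None of the 3 overlapped. UMIs are not scaled to transcript length, so the level of one gene is not compared with that of another.

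Nkd2, the Wnt inhibitor, had 0.697, 0.486 and 0.476 CPM in sham kidneys and 9.23, 14.6 and 13.9 in DOCA-salt kidneys. Its log2 change was 4.37 (SE 0.24). DOCA-salt mouse 1 was the lowest of its group for all 9 genes, and it also had the fewest fibroblasts of the 3, 217 against 298 and 307.

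Fibroblasts held most UMIs of every member in DOCA-salt kidneys. The share of a gene's UMIs that came from fibroblasts was highest for Fbn2, 93.8% ± 2.09 (SD, n = 3), and Frem1, 93.5% ± 2.58, and lowest for Cdh11, 85.0% ± 3.06, and Gpr153, 85.3% ± 4.30. The other 5 genes lay between 88.2% and 92.4%. In sham kidneys the same share had a mean of 0% for Cck, 3.03% for Nkd2 and 4.76% for Fbn2, and reached 50.6% ± 22.3 for Cxcl14. No gene's sham share overlapped its DOCA-salt share. How many of all genes were so separated was not computed. Fibroblasts were 0.134% of sham and 2.91% of DOCA-salt cells, so this separation is not shown to be particular to these 9.

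**Figure D2:**
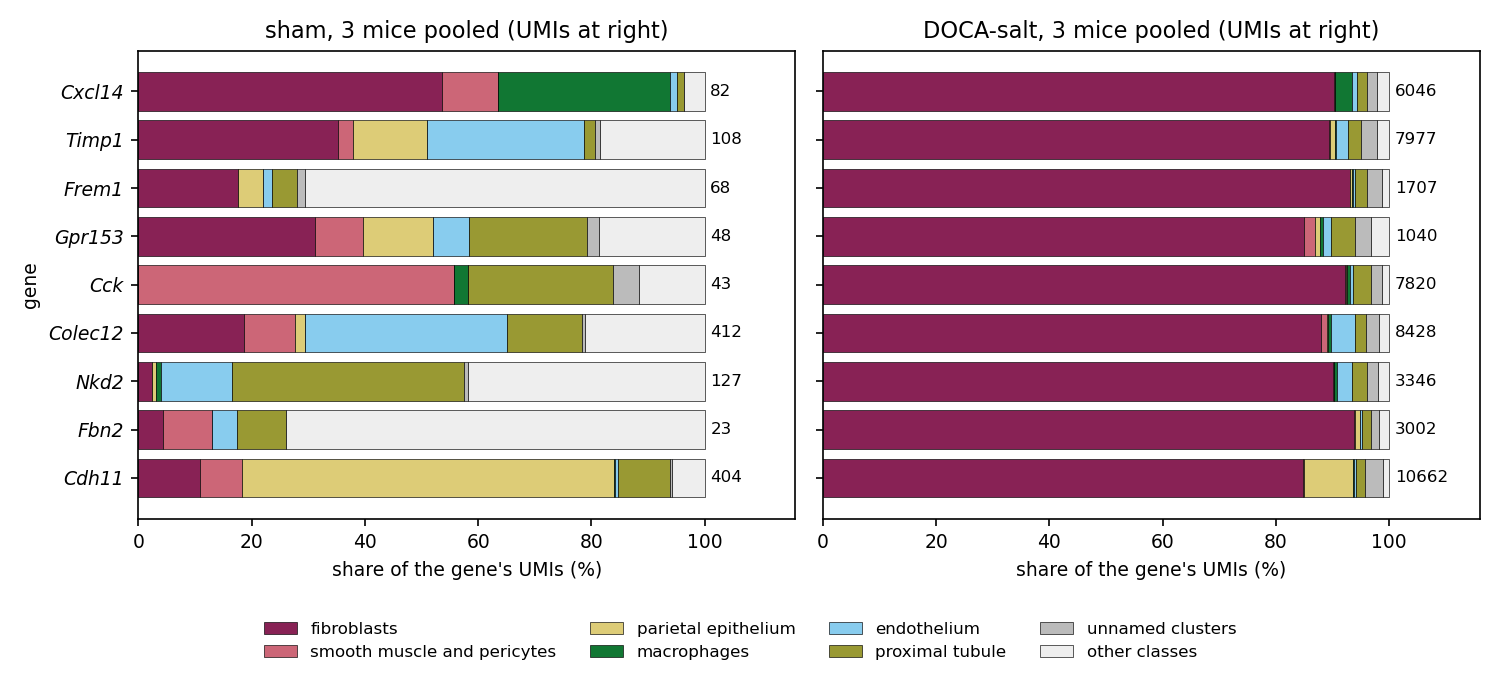
Share of each gene's UMIs (percent, horizontal axis) by cell class, for the 3 sham mice pooled on the left and the 3 DOCA-salt mice pooled on the right, with the total UMIs of the gene beside each bar. In DOCA-salt kidneys fibroblasts fill at least 84.7% of every bar, while sham bars differ from gene to gene and rest on 23 to 412 UMIs a gene.

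The sham UMIs were few and came from different classes for different genes. Cdh11 had 265 of its 404 sham UMIs in parietal epithelium, the flat cells lining the Bowman capsule, and Colec12 had 147 of 412 in endothelium. Frem1 had 34 of 68 in the thick ascending limb, and 33 of these were in a single cluster of 62 sham cells led by Nos1 and Pappa2, where the class had 2200 sham cells in all. Cck had 24 of 43 in smooth muscle cells and pericytes. Nkd2 had 52 of 127 in the abundant proximal tubule cells and 36 in the thin limb. Cxcl14 had 44 of 82 in fibroblasts and 25 in macrophages. Timp1 had 38 of 108 in fibroblasts and 30 in endothelium. Gpr153 had 15 of 48 in fibroblasts. Thus only for Cxcl14, Timp1 and Gpr153 were fibroblasts the class with the most sham UMIs.

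Within DOCA-salt mice, fibroblasts were set beside smooth muscle cells and pericytes, the other mesenchymal class, which held 291 cells. The levels by class served to place the 9 genes, so log2 differences from edgeR, with mouse as a block, are given as a description with no p-value. All 9 genes had higher levels in fibroblasts in every mouse. Of the 10794 genes fitted, 23.3% were called higher in fibroblasts and 19.7% lower by edgeR's adjusted p, 43.0% in all. Such a call is a different measure from a higher level in every mouse. The share of all genes with a higher level in every mouse was not computed. The placing of these 9 is therefore not shown to be particular to them. The differences were wide in range, since some of the 9 genes were nearly absent from the mural cells and others were not.

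Frem1 had 168, 162 and 141 CPM in the fibroblasts of DOCA-salt mice 1, 2 and 3 and no UMI in their mural cells. Setting the mural level at 3 UMIs among 1840422, it was at least 95.8-fold higher in fibroblasts. Cxcl14 had 546, 565 and 496 CPM in fibroblasts and 1.66, 1.41 and 0 in mural cells, a log2 difference of 8.86 (SE 0.27). Both genes were thus at or under 3 UMIs in all mural cells together. The 2 mural UMIs of Cxcl14 leave a counting error larger than this SE.

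Nkd2 (256 to 321 against 1.41 to 3.80 CPM), Timp1 (628 to 799 against 0 to 9.95) and Fbn2 (237 to 331 against 0 to 5.70) followed with log2 differences of 7.05 (SE 0.27), 6.88 (SE 0.24) and 6.61 (SE 0.30). Cck had 641 to 783 CPM in fibroblasts and 2.81 to 17.1 in mural cells, a log2 difference of 6.15 (SE 0.21). Cdh11 had 848 to 941 against 8.43 to 20.9, a difference of 5.95 (SE 0.18). No mural value of these 5 genes came near a fibroblast value. The mural levels of Nkd2, Timp1 and Fbn2 rest on 4, 11 and 5 UMIs, so their SE understates the counting error.

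Colec12 and Gpr153 were the least exclusive. Colec12 had 698 to 767 CPM in fibroblasts and 26.5 to 56.2 in mural cells, a log2 difference of 4.06 (SE 0.16). Gpr153 had 77.9 to 101 against 9.50 to 11.6, a difference of 3.08 (SE 0.23). Both still separated completely. When cells were instead taken by the marker UMIs of each cell, without clusters, all 9 stayed higher in fibroblasts but the log2 differences shrank to between 2.12 for Timp1 and 3.99 for Frem1.

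**Figure D3:**
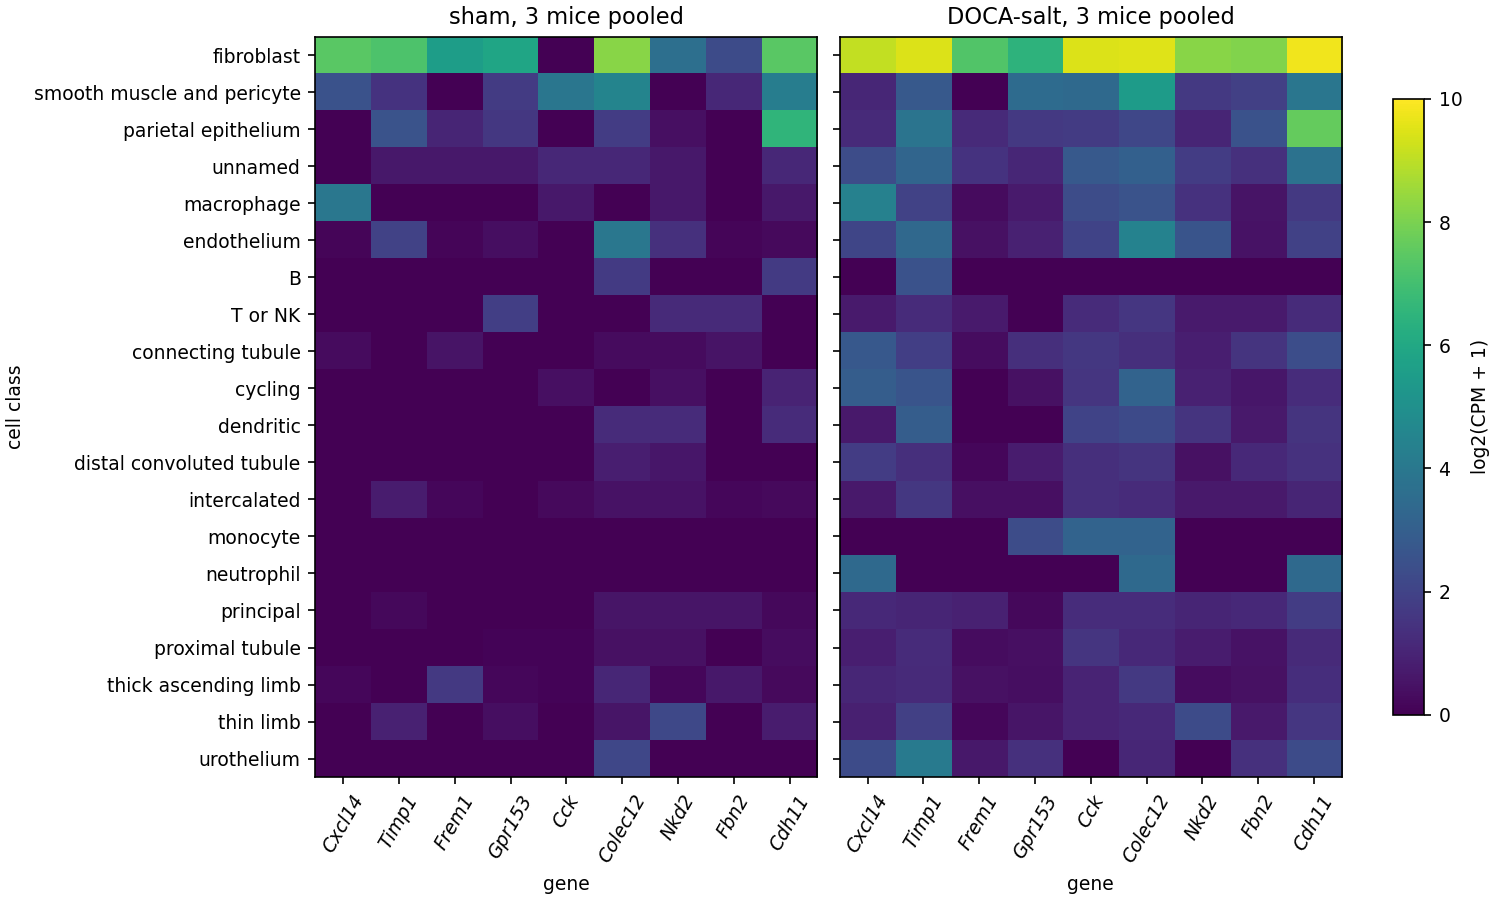
Level of each gene, as log2(CPM + 1) of 3 pooled mice, in each cell class (rows), sham on the left and DOCA-salt on the right; the podocyte class, with 24 sham cells and 1 DOCA-salt cell, is left out. The fibroblast row is the brightest for every gene in DOCA-salt kidneys, and Cdh11 in parietal epithelium stands out in both groups.

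Outside fibroblasts, the class with the next highest level in DOCA-salt mice differed from gene to gene. For Cdh11 it was parietal epithelium, with 189, 168 and 253 CPM or 22.8% of the fibroblast level. In sham parietal epithelium Cdh11 had 82.9, 94.9 and 95.9, so the groups did not overlap there. The share of all genes so separated in this class was not computed. Its cells had a median of 9241 UMIs in sham and 17398 in DOCA-salt mice, and 1 of its clusters, of 23 cells, came from DOCA-salt mouse 2 alone. The part of these differences in the Cdh11 values was not tested. For Gpr153 the next highest class was smooth muscle cells and pericytes, at 11.7% of the fibroblast level.

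Colec12 was also next highest in smooth muscle cells and pericytes, at 5.89% of its fibroblast level, followed by endothelium at 2.85%. In endothelium it had 19.0, 19.8 and 23.7 CPM in DOCA-salt and 15.1, 18.4 and 10.5 in sham mice. Cxcl14 had 12.4, 18.7 and 26.0 in DOCA-salt macrophages, 3.61% of its fibroblast level, and 14.9, 19.3 and 9.49 in sham macrophages, where the groups overlapped.

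Timp1 was next highest in urothelium, from 30 UMIs, and in parietal epithelium, at 2.12% and 1.93% of its fibroblast level. In endothelium Timp1 had 6.48, 9.61 and 12.0 CPM in DOCA-salt against 2.65, 3.07 and 3.20 in sham mice. Nkd2 was next highest in endothelium, with 4.05, 5.77 and 5.18 CPM in DOCA-salt against 2.12, 1.70 and 0.872 in sham mice. In the thin limb Nkd2 had 2.79, 4.53 and 4.11 against 3.73, 3.27 and 3.31, with overlapping groups.

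In proximal tubule cells the 9 genes were at 0.15% to 0.395% of their fibroblast levels in DOCA-salt mice, as for Cck with 1.93 ± 0.567 CPM (SD, n = 3). The part of RNA free in the droplets in these low values was not tested. With the fibroblasts left out of the sums, 8 of the 9 genes were still higher in every DOCA-salt mouse than in every sham mouse, against 23.5% of all genes tested. Nkd2 was the exception, with 0.698, 0.442 and 0.477 CPM in sham mice and 0.685, 1.86 and 1.28 in DOCA-salt mice. The levels left were low, such as 1.29, 3.30 and 2.49 for Cck and 0.303, 0.696 and 0.310 for Frem1. With the cells of the unnamed clusters also left out, a choice made after seeing the data, all 9 were separated, though for Nkd2 only as 0.732 in the lowest DOCA-salt mouse against 0.701 in the highest sham mouse. With at most 20% mitochondrial UMIs, 7 of the 9 were separated outside fibroblasts. The share of all genes so separated was not computed for these last choices. All these sums are part of those by which the 9 genes were chosen. The counts are therefore a description and not independent evidence of a rise outside fibroblasts.

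Within fibroblasts, the comparison of sham and DOCA-salt mice rests on 23, 6 and 9 sham cells with 256720 UMIs in all, against 217, 298 and 307 DOCA-salt cells with 10184164 UMIs. Of the 9 genes, 7 did not overlap between the groups, all higher in DOCA-salt mice, where 19.0% of the 9862 genes tested in fibroblasts were so placed. These values belong to the contrast by which the genes were chosen and are a description. Sham fibroblasts were also shallower, with a median of 4625.5 UMIs per cell against 11341.5.

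Cck, Fbn2 and Nkd2 were at or near 0 in sham fibroblasts. Cck had no UMI in the 38 sham fibroblasts and 714, 641 and 783 CPM in those of the DOCA-salt mice. Against a floor of 3 UMIs over the sham group, it was at least 60.6-fold higher. Fbn2 had 1 sham UMI, in mouse 2, and 267, 237 and 331 CPM in DOCA-salt fibroblasts, a ratio of pooled levels of 71.0 with an exact counting interval from 12.7 to 2807. Nkd2 had 3 sham UMIs, all in mouse 2, and 321, 315 and 256 CPM in DOCA-salt fibroblasts, a ratio of 25.3 (interval 8.66 to 123). These intervals cover counting error only and say nothing of the spread between mice.

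Timp1, Cdh11, Colec12 and Gpr153 were present in sham fibroblasts and higher in DOCA-salt fibroblasts. Timp1 had 108, 415 and 32.9 CPM in sham mice and 799, 705 and 628 in DOCA-salt mice. Cdh11 had 122, 352 and 148 against 877, 848 and 941, a log2 change of 2.25 (SE 0.37). Colec12 had 244, 456 and 313 against 725, 698 and 767, a log2 change of 1.19 (SE 0.32). Gpr153 changed least, from 54.1, 62.2 and 65.9 to 101, 77.9 and 87.9, a pooled ratio of 1.49 with a counting interval from 0.896 to 2.67. In none of the 4 did the groups overlap, but for Gpr153 the gap, from 65.9 to 77.9, was small.

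Cxcl14 and Frem1 overlapped between the groups within fibroblasts. Cxcl14 had 33.8, 539 and 214 CPM in sham mice and 546, 565 and 496 in DOCA-salt mice. Frem1 had 13.5, 166 and 32.9 against 168, 162 and 141. For both genes the high sham value was that of mouse 2, which had 6 fibroblasts. Mouse 2 was also the highest sham mouse for Timp1, Colec12, Nkd2, Fbn2 and Cdh11, and it held 2 fibroblasts with UMIs of at least 5 of the 9 genes, where the 32 fibroblasts of the other sham mice held none.

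**Figure D4:**
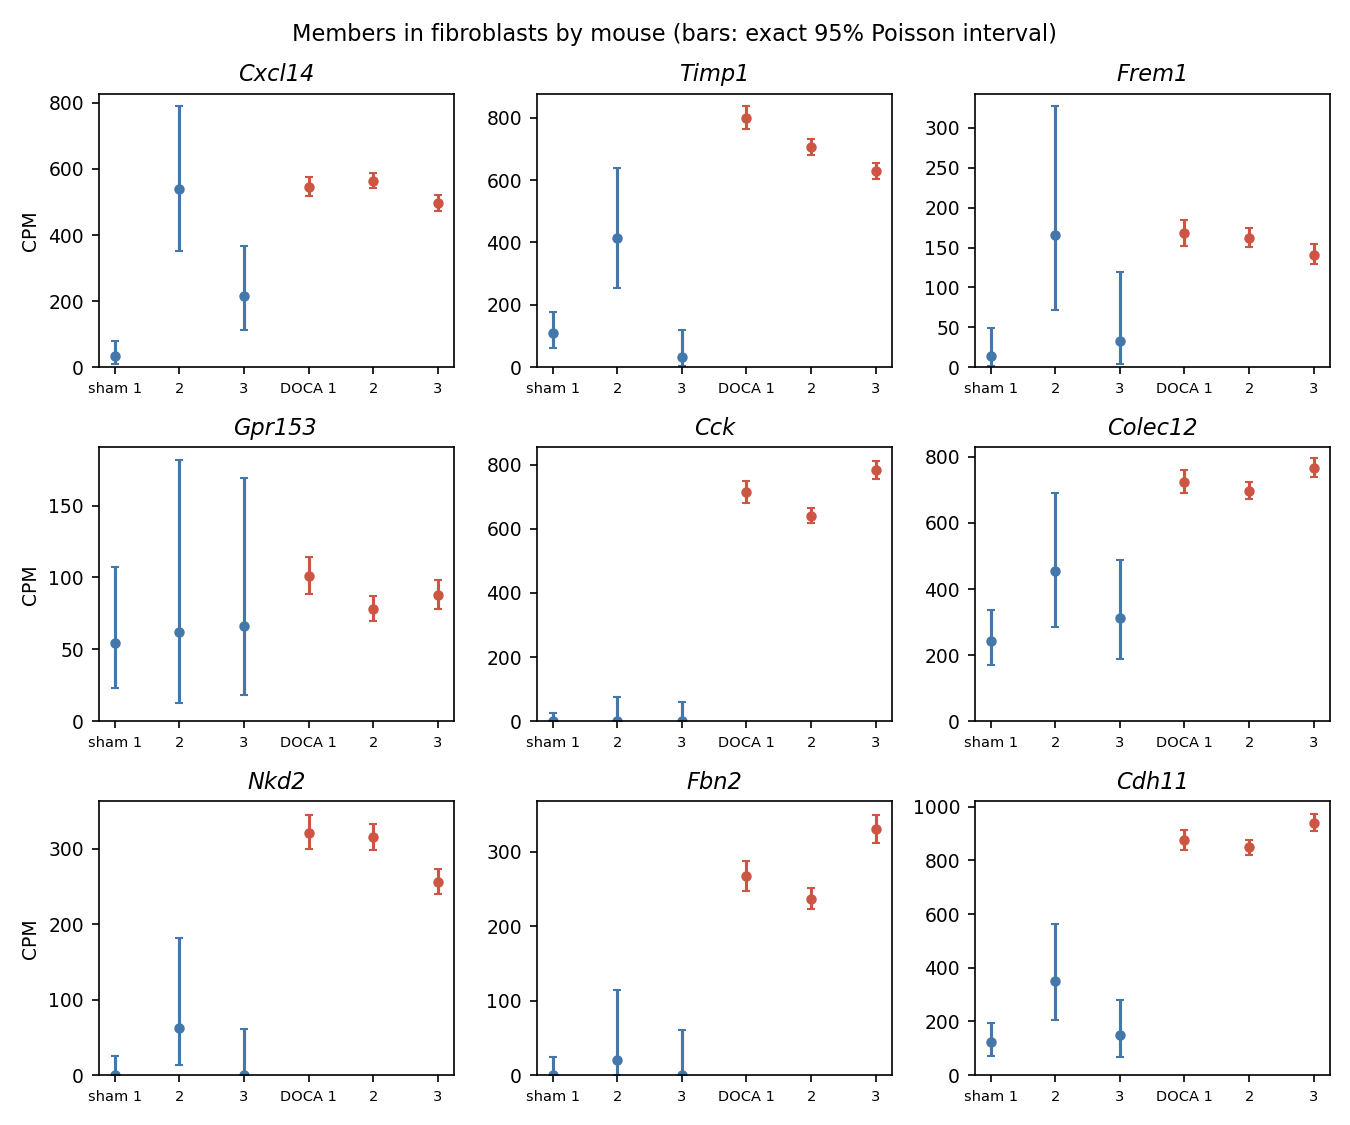
CPM in the fibroblasts of each mouse, 1 panel a gene with its own linear axis from 0, sham mice in blue and DOCA-salt mice in red. Bars are exact 95% Poisson intervals for counting error, wide in sham mice with 6 to 23 fibroblasts; Cck is at 0 in all 3 sham mice and between 641 and 783 in DOCA-salt mice.

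UMIs of several of the 9 genes were often found in the same DOCA-salt fibroblast. Each gene alone was frequent in these cells, and whether the genes met more often than their single shares imply was not tested. A DOCA-salt fibroblast had UMIs of a median of 7 of the 9 genes in each of the 3 mice, and 85.7%, 86.6% and 84.4% of the cells had at least 5. Sham fibroblasts had medians of 2, 2.5 and 3. These counts were not thinned, and sham fibroblasts had a median of 4625.5 UMIs against 11341.5. Cdh11 had a UMI in 96.7% ± 0.378 (SD, n = 3) of DOCA-salt fibroblasts and Colec12 in 96.6% ± 1.13, while Cck had one in 55.7% ± 3.97. In DOCA-salt proximal tubule cells, with a median of 7587 UMIs, the shares were 1.12% for Cdh11, 1.11% for Colec12 and 1.64% for Cck. Nearly every DOCA-salt fibroblast thus held Cdh11 and Colec12, and a smaller share held Cck.

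Thinning each cell to 1000 UMIs lowered the shares but kept the gap in depth out of them, with 2 sham and 7 DOCA-salt fibroblasts too shallow to use. Cdh11 was then seen in 18.4% ± 5.75 of sham and 55.1% ± 1.20 of DOCA-salt fibroblasts, and Colec12 in 26.4% ± 2.29 and 49.0% ± 1.17. Cck was seen in 0% and 32.5% ± 3.11. Without thinning, 0 of 38 sham fibroblasts had a Cck UMI, and a limit of 3 counts allows a share of up to 7.89% of cells with a UMI at this depth. Gpr153 differed least after thinning, with 5.83% ± 1.5 against 8.45% ± 0.931.

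The fibroblasts split into 7 subclusters that differed in the 9 genes. These are called by number and by their leading genes, and values are those of DOCA-salt mice pooled unless stated. Subcluster 0, led by Sfrp4, Clec3b and Pi16, held 26 of the 38 sham fibroblasts but 63 of the 822 DOCA-salt fibroblasts. There Pi16, a marker of adventitial fibroblasts, was at 1418 CPM. Cck was at 8.94, Fbn2 at 31.9 and Nkd2 at 69.0, their lowest or near lowest in any subcluster, while Timp1 was at 1166. Timp1 varied widely there, with a mean over the 3 mice of 1223 ± 848 (SD). The 26 sham cells of subcluster 0 had no UMI of Cck, Fbn2 or Nkd2 among 120054 UMIs. So few UMIs cannot tell 0 from 8.94 CPM, the level of Cck in the DOCA-salt cells there.

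Subcluster 5, led by Nebl, Spp1 and Lin7a, held 271 DOCA-salt fibroblasts and no sham cell. Over the 3 mice Nkd2 averaged 582 CPM there, Cck 1017 and Timp1 1204. In subcluster 1, led by Grm7, Igfbp3 and Cxcl12, with 202 DOCA-salt and 4 sham cells, Cxcl14 averaged 936 and Frem1 251 while Nkd2 averaged 67.1 and Timp1 260.0. Subclusters 1 and 5 therefore differed in opposite directions for the pair Cxcl14 and Frem1 and the pair Nkd2 and Timp1. Subcluster 3, led by the interferon-response genes Ifit1, Cxcl10 and Ifit3, held 162 DOCA-salt cells and 1 sham cell, with Cck at 941 and Cxcl14 at 446 on average. Subclusters 2 and 4 were led by genes of tubule cells, such as Slc12a1 and Miox, and subcluster 6 had 13 cells. The cells of subclusters 2 and 4 are kept in every fibroblast value. They held 24258 and 65588 of the 256720 UMIs of sham fibroblasts. In DOCA-salt fibroblasts they held 1081296 and 468704 of 10184164. The part of this difference in the sham and DOCA-salt values of the 9 genes was not tested. Over the 5 subclusters with more than 50 cells, Gpr153 varied least, from 69.5 to 108 on average, followed by Cdh11 (602 to 1095) and Colec12 (423 to 839).

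**Figure D5:**
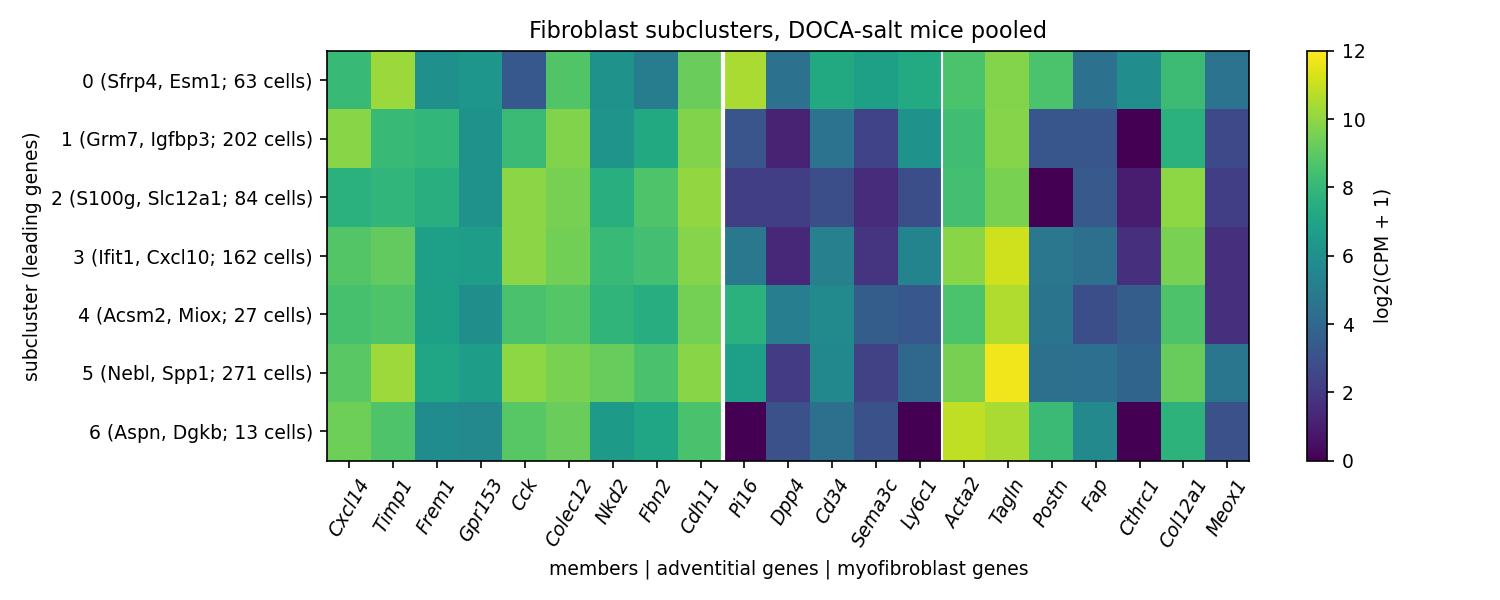
Level in the 7 fibroblast subclusters of DOCA-salt mice, as log2(CPM + 1) of the pooled cells, for the 9 genes, 5 adventitial genes and 7 myofibroblast genes, separated by white lines. Cck is dark in subcluster 0, where Pi16 is bright, and Nkd2 is brightest in subcluster 5.

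Other genes moved with the group in fibroblasts. Counts of genes detected below are not at like depth, since they rest on 256720 sham and 10184164 DOCA-salt UMIs. The 7 myofibroblast genes summed to 548 to 2322 CPM in sham fibroblasts, with 4 of the 7 detected, and 2575 to 3890 in DOCA-salt fibroblasts, with all 7 detected. Among them Acta2 had 74.4, 145 and 791 in sham mice and 685, 427 and 743 in DOCA-salt mice, with overlapping groups. Tagln, the largest part of the DOCA-salt sums, was at most 1433 in sham mice and at least 1591 in DOCA-salt mice. Both genes were also in the marker list of smooth muscle cells and pericytes. Col12a1, a fibril-associated collagen, had 102, 41.5 and 0 in sham mice and 459.6, 470.2 and 664 in DOCA-salt mice. Postn, a matricellular protein gene, had 284, 20.7 and 98.8 against 45.5, 50.6 and 46.9, with overlapping groups and the lower mean in DOCA-salt mice. The 5 adventitial genes summed to 187 to 1218 in sham and 210.4 to 332 in DOCA-salt fibroblasts, and overlapped. The 8 proximal tubule markers summed to 663 to 3953 in sham and 615 to 1291 in DOCA-salt fibroblasts, the 7 macrophage markers to 0 to 1099 and 55.7 to 90.2, and the 10 dissociation-response genes to 6588 to 18056 and 9695 to 12572. The 11 endothelial markers summed to 16.5 to 187 in sham fibroblasts, with 4 detected, and to 412 to 551 in DOCA-salt fibroblasts, with all 11 detected. The 6 podocyte markers summed to 20.7 to 67.7 in sham and 114 to 149 in DOCA-salt fibroblasts, with 4 and 5 detected. Markers of urothelium, B cells and mesothelium were at 0 in sham fibroblasts and summed to at most 4.51 in DOCA-salt fibroblasts. The 7 markers of smooth muscle cells and pericytes summed to 271 to 2405 and 2294 to 3394, and overlapped. All 7 fibroblast markers were detected in both groups and summed to 6944 to 25575 in sham and 10292 to 11383 in DOCA-salt fibroblasts. Pdgfra was at 148 to 196 in sham and 212 to 237 in DOCA-salt mice. Other markers had the higher mean in sham mice, such as Dcn, with 9678, 1472 and 3722 against 1506, 2333 and 1501, and Lum, with 887, 228 and 889 against 237, 185 and 245. The part of these differences in the values of the 9 genes was not tested.

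The genes most like each member in level across classes were then listed. Over 54 sums of 18 classes in 3 DOCA-salt mice, which share library and depth, Pearson correlations of log2(CPM + 1) were computed with 14934 genes. The 3 closest were Olfml3, Hmcn1 and Mfap4 for Cxcl14 (r from 0.841 to 0.879), and Ak5, Fndc1 and Mmp2 for Timp1 (0.817 to 0.831). For Frem1 they were Sfrp4, 4930578G10Rik and Mfap4 (0.936 to 0.944), and for Gpr153 they were Cd248, Prelp and Prrx1 (0.896 to 0.902). Cck was closest to Col1a1, a chain of type I collagen, with Frmd3 and Tmem45a next (0.892 to 0.908). C1qtnf2, Mgp and Dact1 were closest to Colec12 (0.910 to 0.917), and Tnc, Gm29683 and Svep1 to Cdh11 (0.897 to 0.916). Frmd3 led for both Nkd2 (0.924, then C7 and Srpx2) and Fbn2 (0.916, then Frem1 and Sfrp4), and Frem1 was the only member among the 3 closest genes of another.

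Companion genes, which act with or are related to the 9 by family or pathway, were then tested between whole kidneys. Of 70 companions in 8 lists, 65 passed the filter on low counts, 27 rose and 2 fell, with edgeR's quasi-likelihood test and Benjamini-Hochberg adjustment, against 11.5% of all genes tested that rose and 5.69% that fell, 17.2% in all. The median log2 change was 0.63 over the companions tested and -0.02 over all genes tested. The lists were chosen with results of these samples known and are not independent evidence of a direction.

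Microfibril and elastic fibre genes, the partners of Fbn2, held the most rises: 10 of 14 rose and none fell, with a median log2 change of 1.77. Ltbp2, which binds fibrillin microfibrils, rose from 0.166, 0.191 and 0.369 CPM in sham kidneys to 11.3, 22.4 and 21.1 (log2 6.14, SE 0.38, edgeR adjusted p = 0.000183). Mfap5 rose by 4.40 (SE 0.58), Mfap2 by 2.74 (SE 0.21) and Fbln1, fibulin-1, by 2.73 (SE 0.42), all on the log2 scale with groups that did not overlap. Fbn1, the close relative of Fbn2, rose from 5.00 ± 1.04 to 23.5 ± 6.07 CPM (SD, n = 3; log2 2.11, edgeR adjusted p = 0.000895).

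Of 8 genes that comprised the relatives of Timp1, metalloproteinases and Cd63, a tetraspanin that binds TIMP-1, 4 rose. Timp2 rose from 36.0 ± 2.21 to 70.4 ± 9.97 CPM (log2 0.85, edgeR adjusted p = 0.00223). Timp3 had 2172 ± 297 in sham and 2036 ± 74.3 in DOCA-salt kidneys and did not pass the test (adjusted p = 0.361), nor did Timp4 (adjusted p = 0.639). The stromelysin gene Mmp3 rose by 4.73 (SE 0.69), the gelatinase gene Mmp2 by 3.61 (SE 0.27) and the membrane-type protease gene Mmp14 by 2.31 (SE 0.31) on the log2 scale.

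Around Nkd2 in the Wnt pathway, 4 of 15 genes rose and 1 fell. The paralog Nkd1 rose from 0.840, 1.16 and 1.23 CPM to 3.37, 5.36 and 6.59 (log2 2.12, SE 0.27, edgeR adjusted p = 0.00196). Dkk3 rose by 2.26 (SE 0.22), Dkk2, a secreted modulator of Wnt receptors, by 0.96 (SE 0.22), and Wnt5a, a Wnt ligand, by 0.70 (SE 0.13). The Dkk2 call was lost without sham mouse 1 or 3 or DOCA-salt mouse 2 or 3 (edgeR adjusted p 0.0584 to 0.0749). Rnf43, a ligase that removes Wnt receptors, fell by 0.57 (SE 0.12), a call that was lost with the replicate number as a block. Axin2, a common Wnt target, had 0.786 ± 0.169 and 1.46 ± 0.231 CPM and did not pass (adjusted p = 0.0527).

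The remaining lists had fewer calls. Of the cadherins and catenins 3 of 10 rose, Cdh3 by 1.10 (SE 0.14), Cdh5, the endothelial cadherin, by 0.98 (SE 0.16) and Cdh6 by 0.76 (SE 0.10). Of the collectins and scavenger receptors 3 of 5 tested rose, Colec11 by 3.49 (SE 0.72; adjusted p 0.0665 without sham mouse 1), the macrophage receptor gene Msr1 by 2.41 (SE 0.34) and Stab1 by 1.92 (SE 0.15). Among the Fraser complex genes Itga8 rose by 0.92 (SE 0.22), Fras1 fell by 0.37 (SE 0.09) and Frem2, the relative of Frem1, did not pass (log2 0.19, adjusted p = 0.369). The Fras1 call was lost without sham mouse 1 or 3 or any DOCA-salt mouse (adjusted p 0.0567 to 0.129), and the Itga8 call without sham mouse 1 or 3 or DOCA-salt mouse 2 or 3 (0.0762 to 0.0975). Of the chemokine and peptide hormone companions Ackr3, a scavenging chemokine receptor, rose by 0.98 (SE 0.17) and Cxcl12 by 0.68 (SE 0.12). The cholecystokinin receptor gene Cckar had 12.6 ± 2.30 and 10.9 ± 0.826 CPM and did not pass (adjusted p = 0.183), and Cckbr, with 28 and 5 UMIs, was too rare to test. Gpr162, a relative of Gpr153, did not pass (log2 -0.21, adjusted p = 0.699).

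Within fibroblasts, 6 of 49 companions tested rose and 6 fell, against 2.41% and 2.77%, or 5.18% together, of the 9862 genes tested. Ltbp2 had 27.1, 207 and 132 CPM in sham and 360.3, 452 and 355 in DOCA-salt fibroblasts (log2 2.02, SE 0.45, edgeR adjusted p = 0.0115). Mmp14 rose by 2.30 (SE 0.51) and Mmp2 by 1.26 (SE 0.35). In the Wnt list Dkk2 rose by 2.78 (SE 0.65). Nkd1 also rose (edgeR adjusted p = 0.00724), from 2 sham UMIs, a pooled ratio of 11.0 with a counting interval from 3.04 to 91.1, and Lef1, a Wnt-responsive transcription factor gene, was at least 2.34-fold higher than the floor of its 0 sham UMIs. The Lef1 call was lost in 3 of the 6 processing alternatives that kept all mice, among them at most 20% mitochondrial UMIs (edgeR adjusted p = 0.0553). The Wnt inhibitor gene Sfrp2 fell from 183, 20.7 and 165 CPM to 18.1, 1.42 and 10.5 (log2 -4.01, SE 0.72, edgeR adjusted p = 0.00237).

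Genes that rose in whole kidneys could fall within the fibroblast class, as a share of its UMIs. Of sham fibroblasts 68.4% were in subcluster 0, against 7.66% of DOCA-salt fibroblasts. The part of this difference in the rises and falls of companions was not tested. Fbln1 had 1313, 352 and 560 CPM in sham fibroblasts and 265, 262 and 291 in DOCA-salt fibroblasts, and fell by 1.56 on the log2 scale (SE 0.38, edgeR adjusted p = 0.0207). Mfap4 fell by 2.38 (SE 0.48) and Cxcl12 by 1.29 (SE 0.35) in fibroblasts, though both rose in whole kidneys, and their values overlapped between the groups in fibroblasts. Cdh13 fell by 1.72 (SE 0.37) and Cdh16, a cadherin of tubule cells, by 1.92 (SE 0.44), though the values of Cdh16 overlapped, with 176, 20.7 and 65.9 CPM in sham and 30.0, 28.0 and 35.9 in DOCA-salt fibroblasts. The fibroblast calls rest on 38 sham cells: without sham mouse 1, which gave 23 of them, none of the companions passed as higher and 1 passed as lower, and without sham mouse 2 these were 8 and 13. Without DOCA-salt mouse 1, 2 or 3 the counts were 2, 0 and 0 higher and 1, 2 and 0 lower, but at most 3243 genes then passed the filter on low counts, and Lef1 and Cdh16 were not among them.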

How the data were processed

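Per the labels and the study's methods, the authors aligned reads with Cell Ranger (9.0.0 in the submitters' notes, 8.0.1 in the file headers) to GRCm39 and deposited raw UMI counts per gene and barcode for each mouse. They filtered cells and removed doublets later, so this was repeated here. Barcodes with under 170 genes, under 500 UMIs, over 50% mitochondrial or over 5% hemoglobin UMIs were removed, as were the top Scrublet scores, 0.8% per 1000 barcodes. Total UMIs were 93172739 to 137819127 per mouse.

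Cells were clustered with scanpy 1.11.5 (2000 variable genes, 30 components, Leiden resolution 1.0), leaving out the 9 genes and their companions, and named from marker lists. Counts were summed per mouse and class and tested with edgeR 4.0.16 (quasi-likelihood, TMM, filterByExpr, Benjamini-Hochberg threshold 0.05) in R 4.3.3, with DESeq2 1.42.0 as an alternative and after tests on simulated data. The members and lists were chosen with earlier results of these data known. All members were described. Companions were named when past the threshold in whole kidneys without overlap, at most 4 per list, and as direct relatives. Each mouse was 1 replicate. Each SE is the size of the log2 value divided by the square root of edgeR's F statistic. Such an SE can be smaller than the counting error where a group or class has few UMIs. The labels give no pairing by replicate number, and the main fits between sham and DOCA-salt mice used none. Correlations of same-numbered mice, after centring each group, were -0.0188, -0.413 and -0.0479. So few values from centred groups cannot show whether mice were handled in pairs. Poisson and binomial intervals are exact, at 95%, and cover counting error only.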

Additional observations from a re-analysis of the deposited data

How the results depend on the processing

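The 9 members were higher in fibroblasts than in smooth muscle cells and pericytes under every alternative run. The levels by class served to place these genes, so this is a description. In the main run 23.3% of the 10794 genes fitted were called higher in fibroblasts. With cells taken by marker UMIs the log2 differences of the members fell to between 2.12 and 3.99. The count of companions that rose in whole kidneys, 27, lay between 25 and 34 under the alternatives that kept all mice and between 23 and 30 without 1 mouse. The count that fell, 2, was 1 when scaled by library size only, 4 with at most 20% mitochondrial UMIs, 4 with no doublet removal, and 1 to 4 without 1 mouse. With the replicate block it was 0 in whole kidneys, so that the calls of Fras1 and Rnf43 were both lost, and in fibroblasts the count that fell, 6, was 3. Labels give no pairing, so the block shows only how an unpaired number moves the counts. In fibroblasts the count that fell was also 10 with only mice of at least 10 fibroblasts, which leaves 1 sham mouse, assumed to vary like the 3 DOCA-salt mice, 3 with cells taken by marker UMIs, and 0 to 13 without 1 mouse, and the count that rose, 6, was 0 to 8 without 1 mouse. The share of member UMIs held by fibroblasts had a median over members of 71.3% with cells taken by marker UMIs. Among companions named in whole kidneys, the calls of Fras1, Itga8 and Dkk2 were lost with the replicate block (adjusted p = 0.0965, 0.0519 and 0.0520), and that of Fras1 also when scaled by library size only (0.132). In fibroblasts the calls of Cdh16, Mmp2, Cxcl12, Lef1 and Fbln1 were lost with the replicate block (0.0906 to 0.176), that of Dkk2 with DESeq2 (0.146), those of Cdh16, Cxcl12, Fbln1, Cdh13 and Lef1 with cells taken by marker UMIs (0.0564 to 0.632), and that of Cdh16 with no doublet removal (0.137). The causes were not tested. Sham fibroblasts, 38 cells, limit every value within that class.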

Other observations

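Podocytes, the filtering cells of the glomerulus, numbered 24 in sham and 1 in DOCA-salt mice and so entered no comparison. In the 3 sham mice they had 477 ± 240.3 CPM (SD, n = 3) of Colec12, from 49 UMIs, and 91.1, 127 and 31.3 CPM of Frem1, from 10 UMIs.

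An unnamed cluster of 564 cells, 551 of them from DOCA-salt mouse 2, was led by Rhobtb1, Ehhadh and Cyp4a14. Of the marker lists, that of fibroblasts matched this cluster best, with 4 of its markers detected. The cluster stayed unnamed since its leading genes held Slc13a3, a marker of the proximal tubule list, and no fibroblast marker. Its cells are counted above as outside fibroblasts. Its DOCA-salt cells had UMIs of all 9 genes, from 3.39 CPM of Gpr153 (exact Poisson interval 2.10 to 5.18) to 41.1 of Cdh11 (36.2 to 46.5). DOCA-salt mouse 2 was also the highest mouse for all 9 genes when fibroblasts were left out of the sums.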
